A study of Homo sapiens with 6 samples.

Results

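The S100 genes examined here were 10 members of one family of small calcium-binding proteins: S100A2, S100A3, S100A4, S100A6, S100A10, S100A11, S100A13, S100A14, S100A16 and S100P. They were chosen by gene symbol from the 60708 genes of a table of RNA-seq read counts, and each was found there once. The table held 11 other S100 genes, which were read beside the members. Caki-1, an established human clear cell carcinoma line with an intact VHL gene, was compared with and without VHL, the recognition subunit of the ubiquitin ligase that marks hypoxia-inducible factors for breakdown. The 3 control samples (VC, genotype WT) came from cells infected with the lentiviral CRISPR vector alone. The 3 VHL-KO samples came from cells infected with the same vector carrying guide RNA against VHL. Which of the listed guides against human VHL was used is not given in the study's methods. According to the study's methods, infected cells were selected with puromycin and pure VHL knockout clones were picked by immunoblot. How many clones lie behind the 3 VHL-KO samples was not stated, so loss of VHL and the history of a clone cannot be told apart. Nothing in the labels says that the samples were separate cultures, so the p-values measure the spread between these samples only, which may be technical.

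S100 proteins are built around a pair of EF-hand calcium-binding loops and mostly work as dimers. Calcium opens a hydrophobic surface that binds target proteins, among them annexins, cytoskeletal proteins and p53, and several members are also released from cells and bind receptors such as RAGE, the product of AGER. They differ by tissue: S100A8, S100A9 and S100A12 belong to myeloid cells, S100B to glia and melanocytes, and S100A2, S100A6, S100A10, S100A11, S100A14 and S100A16 to many epithelia.

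Total counts were 31789923, 28463579 and 34881739 in VC replicates 1 to 3, and 29139722, 22805385 and 22628246 in VHL-KO replicates 1 to 3. A count of 0 allows up to 3 counts, which is 0.086 to 0.133 CPM (counts per 1e6 counts of the library) in these samples, for counting error only. Unless another scale is named, values below are CPM scaled by edgeR's trimmed mean of M-values (TMM), log2 fold changes are VHL-KO over VC with their standard error (SE), and a gene is called when its Benjamini-Hochberg adjusted p (quasi-likelihood F-test of edgeR) is under 0.05.

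The edited gene was read first. VHL was at 42.6, 37.8 and 40.1 CPM in VC and at 34.8, 30.4 and 30.5 CPM in VHL-KO. Every VHL-KO sample lay below every VC sample, and VHL transcripts were still abundant in the knockout. The log2 fold change was -0.33 (SE 0.108, adjusted p = 0.0109, edgeR quasi-likelihood, Benjamini-Hochberg). The call was lost in 6 of 16 alternatives, among them leaving out VC replicate 1 (-0.28) or VHL-KO replicate 2 (-0.30), and the log2 fold change was -0.03 once trends with GC content and transcript length were removed. Over those alternatives the adjusted p of VHL ran from 0.000292 to 0.783 (edgeR or DESeq2, Benjamini-Hochberg). A frameshift need not lower the transcript, and 23.5% of the exonic bases of VHL overlap an antisense gene, so VHL counts check the labels only weakly. Of 10 genes that hypoxia-inducible factors are known to activate, 9 were called higher in VHL-KO and 1, EGLN3, lower. Among all genes tested 28.5% were called higher and 31.2% lower. CA9 counted 0, 0 and 2 reads in VC, against 288, 247 and 233 in VHL-KO, a ratio of 562 with a 95% exact counting interval of 155 to 4650. NDRG1 went from 11.7 ± 0.481 to 761 ± 28.5 CPM, ADM from 5.81 ± 0.693 to 67.9 ± 4.32 CPM, VEGFA from 27.2 ± 2.25 to 152 ± 15.7 CPM and ANKRD37 from 1.77 ± 0.410 to 6.95 ± 0.700 CPM (mean ± SD, n = 3 each).

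Renal epithelial markers were present. Summed over the 7 listed, they reached 1667, 1835 and 1523 CPM of the library total in VC and 2042, 2044 and 2039.8 in VHL-KO. KRT8 led that list at 670 ± 86.6 CPM in VC and 951 ± 13.7 CPM in VHL-KO, PAX8 was at 427 ± 38.8 and 614 ± 14.2 CPM, and PAX2 was at 0 in all 6 samples. Of those 7 markers 6 were tested, with 4 called higher and 2 lower in VHL-KO, beside 28.5% higher and 31.2% lower among all genes tested. The lower ones were LHX1, from 55.3 ± 2.65 to 17.4 ± 1.35 CPM, and EPCAM, from 1.33 ± 0.299 to 0.491 ± 0.263 CPM. CDH16, the kidney cadherin, had the largest change of the list, from 6.75 ± 0.988 to 72.2 ± 1.78 CPM. Cell types known for particular S100 proteins were barely represented. All 4 keratinocyte markers were at 0 in all samples, as were SOX10 and MLANA among 4 neural crest and glial markers, whose sum stayed between 0.044 and 0.344 CPM of the library total. The 6 leukocyte markers summed to 2.14, 2.53 and 1.69 CPM of the library total in VC and 4.46, 5.26 and 3.67 in VHL-KO. CD14 was the most abundant of them, at 1.56 ± 0.231 CPM in VC and 4.304 ± 0.852 CPM in VHL-KO, while CD3E was at 0 and PTPRC, the pan-leukocyte marker, had 1 count in 1 sample of each group. ITGAM, the other leukocyte marker tested and also myeloid, was at 0.372 ± 0.238 CPM in VC and 0.214 ± 0.206 CPM in VHL-KO and was not called, and LYZ counted 0, 2 and 2 reads in VC, against 2, 2 and 0 in VHL-KO. The 5 fibroblast markers summed to 37.7, 38.1 and 32.1 CPM of the library total in VC and 25.5, 23.5 and 21.6 in VHL-KO, nearly all from COL1A1, with COL3A1 and LUM at 0. For 3 endothelial markers the sums were 0.126, 0.176 and 0 in VC and 0.652, 0.307 and 0.442 in VHL-KO on that scale, with PECAM1 the most abundant in VHL-KO at 14, 7 and 9 counts, against 1, 5 and 0 in VC. The part of CD14 or PECAM1 in any S100 result was not tested. In such bulk samples, fewer cells that express a gene and less of its RNA per cell cannot be told apart.

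Of the 10 members, 8 passed the filter of 10 reads in any sample. S100A6, S100A10, S100A11, S100A13, S100A4 and S100A16 were called higher in VHL-KO, S100A2 was called lower, and S100A3 was not called. These 6 higher and 1 lower of 8 tested stood beside 28.5% higher and 31.2% lower among all 17401 genes tested, 59.7% of which were called in either direction. Groups did not overlap for 7 of the 8 members and for 64.7% of all genes. S100A2, S100A4, S100A10 and S100A13, 4 of the 8, were called with at least a 2-fold change, against 26.2% of all genes. A share of members near such a background is not a result about the S100 genes. The members' median log2 fold change was 0.87, beside -0.01 for all genes. Scaling moved that zero point: with library size alone the median of all genes was -0.20 and that of the members 0.68, and with upper quartile factors they were 0.10 and 0.98. Among all called genes 47.7% were higher with TMM and 35.8% with library size alone, yet each member's direction was the same under every scaling tried. Of all counts, the members together took 0.218, 0.215 and 0.199% in VC and 0.348, 0.350 and 0.305% in VHL-KO, with no overlap between groups.

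**Figure D1:**
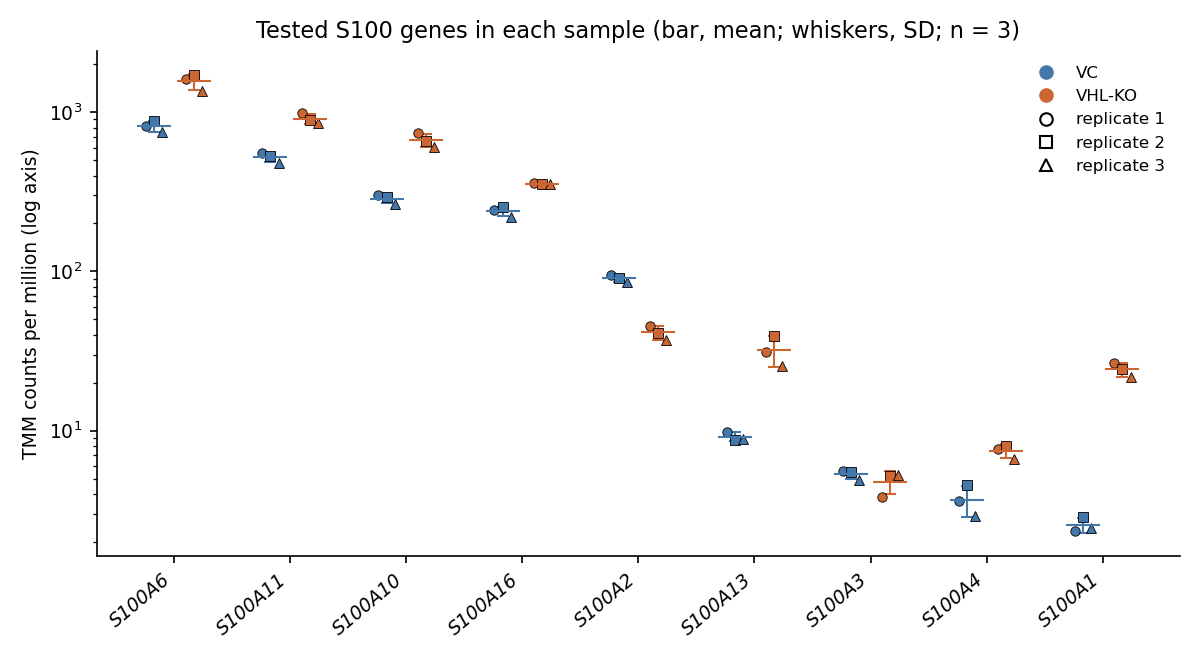
TMM CPM (log axis) of the 8 members tested and of S100A1 in each of the 3 VC and 3 VHL-KO samples, with points for samples, bars for means and whiskers for SD. The groups overlap for S100A3 alone, S100A2 is lower in VHL-KO, and the other 7 genes are higher.

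In the annotation used (GENCODE 44, GRCh38), 9 members lie on chromosome 1, all on the minus strand. S100A10 and S100A11 form a pair between chr1:151982915-152047907. S100A6, S100A4, S100A3, S100A2, S100A16, S100A14 and S100A13 lie in that order between chr1:153534599-153631360, with other genes such as S100A5 among them. S100P lies apart on chromosome 4, at chr4:6693878-6697170. Since 6 members rose and S100A2 fell, the 250 bases before the members' starts were read for a short motif that can be compared across them, the hypoxia response element core. All 10 members had a window in the RefSeq promoter table (GRCh38.p14), 14 windows in all. The motifs searched were ACGTG and GCGTG on both strands, where CACGTG matches on both. Of all 35116 windows of this length, 43.2% hold at least 1 of them (18.5% ACGTG and 32.2% GCGTG), and 7 of the 14 member windows did. Of the 14 windows, 7 contain no annotated exonic base. From those 7, windows of 4 members that rose and of S100A2, which fell, are shown, 5′ to 3′ on the strand of the gene, with matches in capitals.
S100A10, chr1:151993860-151994109, minus strand: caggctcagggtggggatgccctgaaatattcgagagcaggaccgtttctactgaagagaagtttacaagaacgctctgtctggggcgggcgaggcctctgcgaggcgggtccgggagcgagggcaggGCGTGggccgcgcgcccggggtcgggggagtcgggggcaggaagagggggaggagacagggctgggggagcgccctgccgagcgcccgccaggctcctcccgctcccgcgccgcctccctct
S100A11, chr1:152037005-152037254, minus strand: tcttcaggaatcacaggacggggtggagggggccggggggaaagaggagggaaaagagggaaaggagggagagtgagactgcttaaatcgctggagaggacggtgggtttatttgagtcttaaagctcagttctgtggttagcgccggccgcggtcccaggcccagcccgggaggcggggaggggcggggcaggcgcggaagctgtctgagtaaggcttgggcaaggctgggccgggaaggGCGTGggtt
S100A16, chr1:153609356-153609605, minus strand: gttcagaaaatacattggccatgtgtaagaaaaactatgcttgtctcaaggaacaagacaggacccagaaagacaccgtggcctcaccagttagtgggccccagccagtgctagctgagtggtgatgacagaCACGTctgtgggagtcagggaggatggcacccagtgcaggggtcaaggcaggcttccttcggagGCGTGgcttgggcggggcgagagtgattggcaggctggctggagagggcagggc
S100A4, chr1:153545807-153546056, minus strand: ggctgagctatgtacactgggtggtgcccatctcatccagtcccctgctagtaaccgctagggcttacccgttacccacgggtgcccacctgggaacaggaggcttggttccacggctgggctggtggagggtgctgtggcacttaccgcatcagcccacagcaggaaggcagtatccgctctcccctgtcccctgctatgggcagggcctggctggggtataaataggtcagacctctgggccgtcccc
S100A2, chr1:153565845-153566094, minus strand: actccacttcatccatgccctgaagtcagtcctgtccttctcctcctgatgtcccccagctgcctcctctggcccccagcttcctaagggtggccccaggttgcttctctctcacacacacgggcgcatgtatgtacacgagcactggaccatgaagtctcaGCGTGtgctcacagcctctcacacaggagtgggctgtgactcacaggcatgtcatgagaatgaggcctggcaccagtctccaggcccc
The windows of S100A10 and S100A11 each held GCGTG, at 122 and 9 bases before the start. In the windows shown, S100A16 had a match on each strand, at 118 and 54 bases before the start. S100A2 had GCGTG 88 bases before the start, and the S100A4 window held neither motif. S100A16 and S100A2 each had another window, not shown since it holds exonic bases, with neither motif. A match was thus present both in windows of genes that rose and in the window shown of the gene that fell. A match of 5 bases describes the sequence only.

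S100A10 and S100A11 are the classic annexin-binding members. S100A10, which has lost the ability to bind calcium and is fixed in the open form, joins annexin A2 in a heterotetramer at the plasma membrane, where it also binds plasminogen. S100A10 (ENSG00000197747.9) was at 300.3, 292 and 267 CPM in VC and at 737, 657 and 609 CPM in VHL-KO. All 3 VHL-KO samples were far above all 3 VC samples, and within each group the spread was small. The log2 fold change was 1.22 (SE 0.092, adjusted p = 4.09e-11, edgeR quasi-likelihood, Benjamini-Hochberg), and over the alternatives it stayed between 0.76 and 1.33. S100A11 (ENSG00000163191.6), which binds annexin A1 and annexin A2, was at 553, 529.5 and 481 CPM in VC and at 984, 892 and 851.5 CPM in VHL-KO. Here too the VHL-KO samples all lay above the VC samples. Its log2 fold change was 0.80 (SE 0.089, adjusted p = 3.02e-08, edgeR quasi-likelihood, Benjamini-Hochberg), and it was smaller, 0.31, once the trends with GC content and transcript length were removed.

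The partner of S100A10 moved less. ANXA2, which encodes annexin A2, was at 1518, 1560.0 and 1488 CPM in VC and at 1924, 1852 and 1732 CPM in VHL-KO. Its groups did not overlap, with a log2 fold change of 0.27 (SE 0.082, adjusted p = 0.00637, edgeR quasi-likelihood, Benjamini-Hochberg). That call was lost with library size alone and with the length trend alone removed, where the log2 fold change was 0.08 and 0.07. A ratio within each sample needs no scaling between libraries, but it does not cancel trends with transcript length or GC content. The log2 ratio of S100A10 to ANXA2 counts was -2.34, -2.42 and -2.48 in VC and -1.38, -1.50 and -1.51 in VHL-KO. S100A10 transcripts thus gained on those of ANXA2 in every VHL-KO sample, with no overlap between groups. The means differed by 0.95 (p = 0.1, exact permutation test, two-sided, which can go no lower with 3 samples a group). The canonical transcripts differ in length, 671 bases for S100A10 and 1554 for ANXA2, and the ratio was not recomputed with offsets. With GC and length trends removed, the log2 fold changes were 0.946 for S100A10 and 0.246 for ANXA2. With the length trend alone removed they were 0.762 and 0.07, so the gap between the genes was smaller in both fits.

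S100A6, or calcyclin, binds annexins and CACYBP, a component of a ubiquitin ligase that acts on beta-catenin. It is named for its link to proliferating cells. S100A6 (ENSG00000197956.10) was at 817, 874 and 756 CPM in VC and at 1622, 1706 and 1352 CPM in VHL-KO. Even the lowest VHL-KO sample, replicate 3, was well above the highest VC sample. The log2 fold change was 0.94 (SE 0.094, adjusted p = 6.53e-09, edgeR quasi-likelihood, Benjamini-Hochberg), and 0.34 with the trends in GC content and length removed. In the order of all genes by counts, S100A6 went from places 131, 127 and 139 in VC to places 76, 67 and 89 in VHL-KO.

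S100A4, known as metastasin, binds the heavy chain of nonmuscle myosin IIA and promotes the disassembly of its filaments. Its level was low. S100A4 (ENSG00000196154.12) counted 123, 135 and 110 reads in VC, against 204, 174 and 141 in VHL-KO, or 3.60, 4.54 and 2.90 CPM against 7.63, 8.06 and 6.61 CPM. The groups did not overlap, although VC replicates differed among themselves more than for the abundant members. The log2 fold change was 1.02 (SE 0.192, adjusted p = 6.6e-05, edgeR quasi-likelihood, Benjamini-Hochberg). With trends in GC content and length removed it was 0.57, and the call held (adjusted p = 0.00497, edgeR quasi-likelihood, Benjamini-Hochberg).

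S100A13 takes part in the release of signal-less proteins such as FGF1 from stressed cells and binds copper as well as calcium. S100A13 (ENSG00000189171.15) was at 9.84, 8.78 and 8.82 CPM in VC and at 31.1, 39.5 and 25.4 CPM in VHL-KO. Every VHL-KO sample was well above the VC samples, with VHL-KO replicate 2 the highest and replicate 3 the lowest of its group. With a log2 fold change of 1.81 (SE 0.147, adjusted p = 1.66e-10, edgeR quasi-likelihood, Benjamini-Hochberg), it had the largest change of the 8 members tested, and over the alternatives it stayed between 1.25 and 1.95. S100A1, a family gene outside the member list best known for calcium handling in heart muscle, starts inside S100A13 on the opposite strand. S100A1 (ENSG00000160678.12) was at 2.34, 2.86 and 2.45 CPM in VC and at 26.6, 24.3 and 21.7 CPM in VHL-KO. The VC samples were close together and every VHL-KO sample was far above them. The log2 fold change was 3.25 (SE 0.159, adjusted p = 1.75e-14, edgeR quasi-likelihood, Benjamini-Hochberg), with a range of 2.53 to 3.37 over the alternatives. S100A13 and S100A1 share 235 exonic bases, 10.6% of those of S100A13 and 7.8% of those of S100A1, while 320 exonic bases of S100A1, 10.6%, overlap RP1-178F15.4 on the opposite strand. A further 24.2% of S100A13's exonic bases overlap a noncoding gene on its own strand. Whether the counting used strand was not stated, so reads from the shared stretches cannot be told apart.

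S100A16 is broadly expressed and binds calcium weakly. S100A16 (ENSG00000188643.11) was at 243, 253 and 221 CPM in VC and at 358.5, 353 and 351.5 CPM in VHL-KO. The VHL-KO samples nearly coincided and all lay above VC. Its log2 fold change was 0.57 (SE 0.087, adjusted p = 4.36e-06, edgeR quasi-likelihood, Benjamini-Hochberg), the smallest among the called members, and it was 0.37 with library size alone. With GC and length trends removed the difference was no longer called, at 0.06 (adjusted p = 0.318, edgeR quasi-likelihood, Benjamini-Hochberg). S100A14, the gene next to it and a relative found in many epithelia, had 2, 0 and 2 reads in the VC samples, against 6, 0 and 0 in VHL-KO. It did not pass the filter, and any difference was not detectable at this depth, with a pooled ratio of 2.19 and a 95% exact counting interval of 0.52 to 10.6.

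S100A2, a member of basal epithelial layers that binds p53, moved the other way. S100A2 (ENSG00000196754.13) was at 95.3, 90.6 and 85.9 CPM in VC and at 45.7, 41.2 and 37.3 CPM in VHL-KO. No VHL-KO sample came near the VC samples. Its log2 fold change was -1.13 (SE 0.101, adjusted p = 9.55e-10, edgeR quasi-likelihood, Benjamini-Hochberg) and was -1.02 or lower under each alternative, reaching -1.51 with GC and length trends removed. S100A3, a cysteine-rich protein best known from the hair cuticle, lies inside the span of S100A4 without shared exonic bases. S100A3 (ENSG00000188015.10) was at 5.59, 5.52 and 4.90 CPM in VC and at 3.85, 5.19 and 5.30 CPM in VHL-KO. The groups overlapped, with VHL-KO replicate 1 the lowest. The log2 fold change was -0.16 (SE 0.187, adjusted p = 0.468, edgeR quasi-likelihood, Benjamini-Hochberg), and without VHL-KO replicate 1 it was -0.02. With GC and length trends removed, S100A3 was called lower, at -0.83 (adjusted p = 0.000224, edgeR quasi-likelihood, Benjamini-Hochberg). S100P, a placental and epithelial member that activates ezrin, counted 0, 1 and 0 reads in VC, against 0, 0 and 3 in VHL-KO. Both groups were at or under the floor of 3 counts per library, so no fold change is given.

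Among the 11 other S100 genes only S100A1 passed the filter. S100A7, S100A7A, S100A7L2, S100A8, S100A9, S100A12, S100G and S100Z were at 0 in all 6 samples, which leaves at most 3 counts per library for each. S100A5 had counts of 2, 6 and 1 among VC samples and of 3, 0 and 0 among VHL-KO samples, and S100B had 4 counts in VHL-KO replicate 1 and none elsewhere. The myeloid S100A8, S100A9 and S100A12 were thus undetected in every sample of both groups, and the source of the CD14 transcripts was not tested. The S100-fused genes join an S100 domain to long repeats and lie on chromosome 1 between S100A11 and S100A9. Of these 7 genes, 5 were at 0 in all 6 samples. FLG, which encodes filaggrin, counted 97, 105 and 124 reads in VC, against 4, 0 and 0 in VHL-KO. All VC samples were clearly above the floor and only VHL-KO replicate 1 passed it. The pooled ratio was 0.0179, with a 95% exact counting interval of 0.00486 to 0.0464 (adjusted p = 5.88e-10, edgeR quasi-likelihood, Benjamini-Hochberg). TCHH, for trichohyalin, counted 4, 6 and 4 reads in VC, 2, 0 and 2 in VHL-KO, and was not tested.

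Levels of different genes were compared as TMM CPM per kilobase of the canonical transcript. In VC the order was S100A6 at 1879 ± 137, S100A11 at 925 ± 65.4, S100A10 at 427 ± 25.9, S100A16 at 204 ± 13.97 and S100A2 at 92.8 ± 4.82 (mean ± SD, n = 3). S100A13 followed at 19.2 ± 1.25, and S100A3 and S100A4, at 7.19 ± 0.514 and 7.17 ± 1.61, overlapped each other. Every other step between neighbours in this order, down to S100A1 at 4.56 ± 0.489, exceeded the spread over the VC samples. In VHL-KO the top 4 kept their places, with S100A6 at 3594 ± 427, S100A11 at 1615 ± 121, S100A10 at 995 ± 96.6 and S100A16 at 302 ± 3.21 per kilobase. Below them the order changed: S100A13 at 67.1 ± 14.8 came next, then S100A1 at 43.3 ± 4.42 and S100A2 at 42.4 ± 4.29, which overlapped. S100A4 at 14.5 ± 1.45 now stood clear of S100A3 at 6.44 ± 1.08.

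The make-up of the family within a sample also needs no scaling between libraries. Of the summed member counts S100A6 gave 40.3, 42.5 and 41.4% in VC and 42.8, 46.1 and 41.7% in VHL-KO. The ranges overlapped, and the difference of 2.16 percentage points (two-sided exact permutation test, p = 0.2) rested partly on VHL-KO replicate 2, without which it was 0.889. S100A10 went from 14.5 ± 0.33% to 18.7 ± 0.86% of the member counts and S100A2 from 4.60 ± 0.17% to 1.16 ± 0.05%. S100A16 went from 12.1 ± 0.15% to 9.95 ± 0.79%, while S100A11 was at 26.4 ± 0.77% and 25.5 ± 1.19% with overlapping samples. In counts, a larger family total was therefore made up of nearly the same leading genes, with more S100A10 and less S100A2 and S100A16 in proportion. Shares of counts do not cancel trends with transcript length or GC content. With the length trend alone removed, the log2 fold change of S100A16 was 0.264, closer to S100A6 (0.393) and S100A11 (0.308). S100A10 (0.762) and S100A2 (-1.49) still stood apart in that fit.

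Transcript length and base composition moved with these results. Canonical transcripts of the 8 members tested are short, from 434 bases for S100A6 to 1172 for S100A16, and short transcripts rose as a class. Over all genes tested the median log2 fold change was 0.61 below 450 bases, 0.56 from 450 to 600, 0.50 from 600 to 800 and 0.36 from 800 to 1200, and it fell to -0.32 at 5000 bases or more. By base composition it ran from -0.47 at 35 to 40% GC to 0.61 at 65% GC or more. The values of S100A6 (0.94), S100A11 (0.80) and S100A16 (0.57) thus lay somewhat above the median of their length range. S100A4, S100A10, S100A13 and S100A1 lay further above it, while S100A2 and S100A3 lay below. Offsets that removed each library's trends with GC content and length brought the members' median to 0.32, beside 0.004 for all genes. Then 5 members were called higher (S100A6, S100A10, S100A11, S100A13 and S100A4) and 2 lower (S100A2 and S100A3). Such offsets also remove any biological change that follows length or GC content, and the part of length and composition in the S100 results was not tested.

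**Figure D2:**
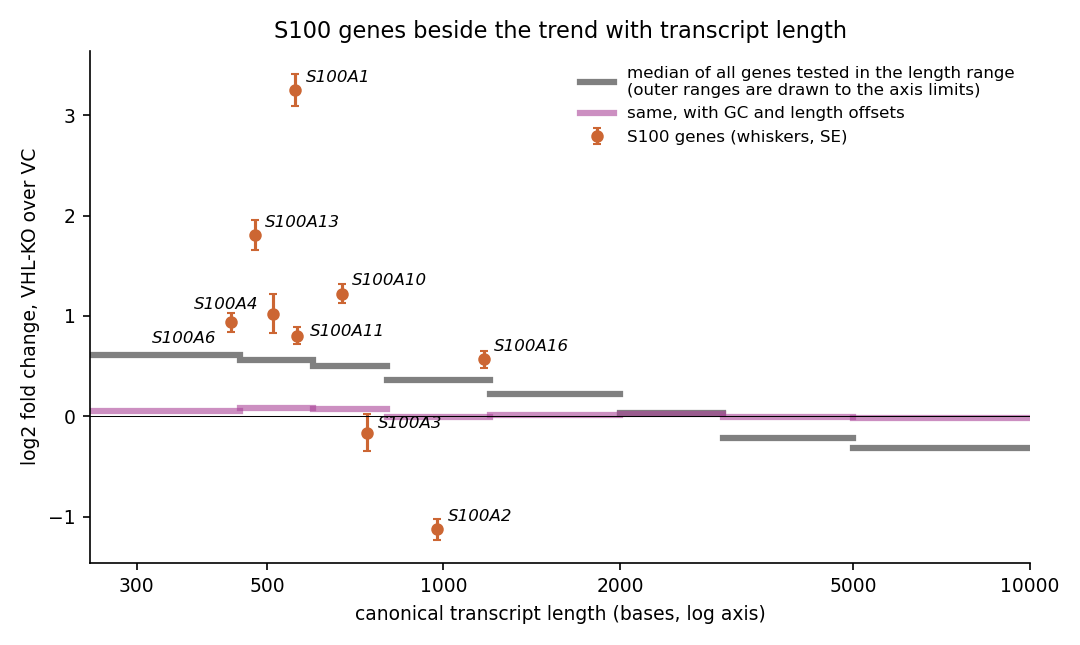
Log2 fold change of the 9 S100 genes tested (points, whiskers SE) against canonical transcript length on a log axis, with horizontal bars for the median of all genes tested in each length range before and after GC and length offsets. Short transcripts have a positive median, 0.61 below 450 bases, S100A6, S100A11 and S100A16 lie slightly above their range, and S100A1 (3.25) and S100A2 (-1.13) lie far from it.

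**Figure D3:**
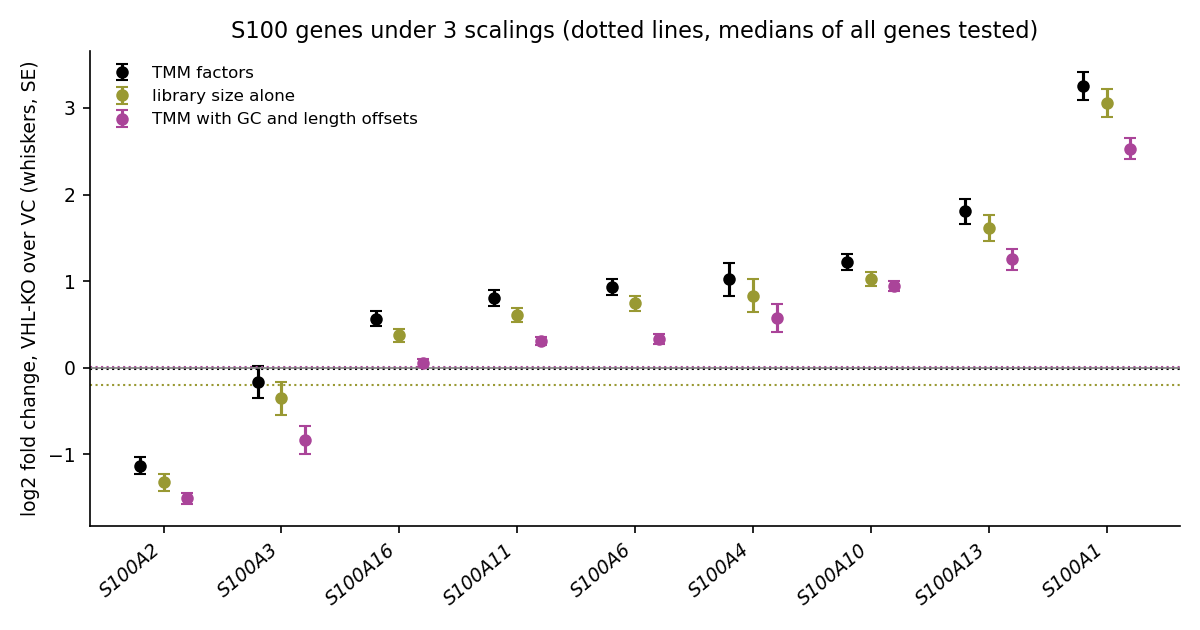
Log2 fold change (whiskers, SE) of the 8 members tested and S100A1 under TMM scaling, under library size scaling and under TMM scaling plus GC and length offsets, where dotted lines mark the median of all genes in each fit. Each gene keeps its sign, while S100A16 falls from 0.57 to 0.06 and S100A3 from -0.16 to -0.83 with the offsets.

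Changes along chromosome 1 were not uniform. S100A10 and S100A11 both rose, but THEM4, beside S100A10, was lower (log2 fold change -0.59). In the other stretch S100A2 fell, and the nearest gene tested on each side of it, S100A3 (-0.16) and RP11-49N14.10 (-0.18), was not called. Within 100 kb of a member lay 38 genes that are not S100 genes, of which 15 were tested, 8 were called higher, 3 lower and 4 not called, with a median log2 fold change of 0.22, beside 28.5% higher and 31.2% lower among all genes. The split depended on the setting. Under library size alone 5 neighbours were higher and 4 lower, beside 3763 higher and 6740 lower among all 17401 genes tested. With the length trend alone removed 6 were higher and 4 lower, beside 4975 and 5063 among all genes tested. The 5 called with the largest changes were all higher. NPR1, the receptor of atrial natriuretic peptide, beyond S100A1, went from 10.5 ± 0.627 to 29.1 ± 1.81 CPM (log2 fold change 1.47). LINC02482, AC093323.3 and MAN2B2, a mannosidase gene, lie near S100P on chromosome 4 and had log2 fold changes of 1.33, 0.80 and 0.71. RP1-178F15.4, antisense to S100A1, was near the detection limit at 0.434 and 0.936 CPM, and its call (adjusted p = 0.0496, edgeR quasi-likelihood, Benjamini-Hochberg) was lost in 12 of 15 alternatives, among them without VC replicate 1, 2 or 3 and without VHL-KO replicate 2 or 3, where its log2 fold change lay between 0.75 and 1.21. ILF2, also beyond S100A1, was lower, at -0.57. Over the alternatives THEM4 stayed between -0.78 and -0.28, ILF2 between -0.76 and -0.36 and MAN2B2 between 0.43 and 0.98.

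**Figure D4:**
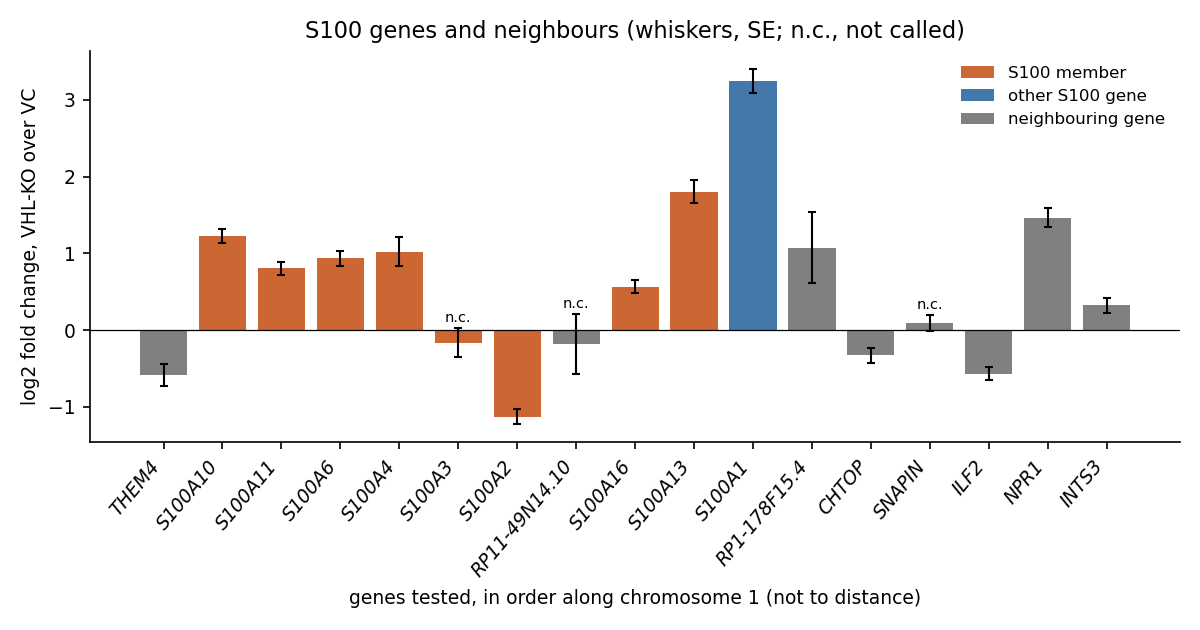
Log2 fold change (bars, whiskers SE) of the S100 members, S100A1 and neighbouring genes tested on chromosome 1, in gene order and not to distance. S100A2, at -1.13, stands between S100A3 (-0.16) and RP11-49N14.10 (-0.18), neither of them called, and the rises of S100A13 (1.81) and S100A1 (3.25) stand side by side.

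Annexins, the main intracellular targets of S100A10, S100A11 and S100A6, changed in both directions. Of 13, 9 were tested, with 4 called higher and 5 lower and a median log2 fold change of -0.29, beside 28.5% called higher and 31.2% lower among all genes tested. Library size alone, like removal of the length trend alone, gave 3 higher and 5 lower. Upper quartile factors gave 4 and 4, and removal of the GC trend alone gave 4 and 3. Among all genes tested, library size alone gave 3763 higher and 6740 lower, and removal of the length trend alone 4975 and 5063. Upper quartile factors gave 5712 and 4668 there, and removal of the GC trend alone 5254 and 5310. ANXA13, an annexin of intestinal and renal epithelium, was highest in fold, from 0.630 ± 0.141 to 8.17 ± 1.51 CPM, followed by ANXA4, from 70.9 ± 3.73 to 264 ± 8.85 CPM. ANXA3 went from 58.6 ± 6.49 to 26.7 ± 1.27 CPM, ANXA7 had a log2 fold change of -0.62 and ANXA6 of -0.44. Over the alternatives ANXA3 ranged from -1.37 to -0.73 and ANXA7 from -0.81 to -0.28. ANXA1, the partner of S100A11, was at 251 ± 26.2 CPM in VC and 198 ± 12.6 CPM in VHL-KO, with groups that did not overlap and a log2 fold change of -0.35 (SE 0.094, adjusted p = 0.00281, edgeR quasi-likelihood, Benjamini-Hochberg). S100A11 and ANXA1 therefore moved in opposite directions, although the sign of ANXA1 turned, at 0.08, when the GC trend alone was removed. ANXA8, ANXA8L1, ANXA9 and ANXA10 had at most 8 counts in a sample and were not tested.

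Receptors for released S100 proteins were read from a list of 5, of which 4 were tested. BSG, the basigin or CD147 receptor known to bind S100A9, was higher, at 625 ± 70.7 CPM in VC and 1201 ± 12.6 CPM in VHL-KO, while the related NPTN fell from 31.5 ± 3.19 to 10.9 ± 0.742 CPM. ALCAM was called higher with a log2 fold change of 0.41, a call lost with library size alone and without VHL-KO replicate 2, where the log2 fold change was 0.21 and 0.34, and its groups overlapped. With GC and length trends removed, ALCAM was at 0.99, and over the alternatives BSG ranged from 0.44 to 1.05. AGER, which encodes RAGE, was scarce, at 0.802 ± 0.337 and 1.14 ± 0.297 CPM, and was not called (adjusted p = 0.246, edgeR quasi-likelihood, Benjamini-Hochberg). TLR4 had 1 count in 1 sample.

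Most intracellular partners were lower. Of 21 such genes 18 were tested, 2 were called higher, 14 lower and 2 were not called, with a median log2 fold change of -0.62, beside 28.5% called higher and 31.2% lower among all genes tested. Partners and receptors together had 4 called higher and 15 lower, and with GC and length trends removed 6 higher and 13 lower, where SUGT1 (0.22) and SYT1 (0.41) were called higher and PPFIBP1 (0.04) and MDM2 (0.02) were not called. The higher ones were KCNK3, a potassium channel that S100A10 escorts to the membrane, from 12.03 ± 1.25 to 47.95 ± 2.26 CPM, and CTSB, a protease bound by the annexin A2 and S100A10 complex, from 602 ± 53.4 to 1491 ± 19.4 CPM. FGF1, the cargo of S100A13, counted 54, 53 and 51 reads in VC, against 10, 8 and 9 in VHL-KO, while S100A13 itself rose. CACYBP, the partner of S100A6, was at 235, 181 and 256 CPM in VC and at 97.8, 104 and 103 CPM in VHL-KO, with no overlap. Its log2 fold change was -1.14 (SE 0.107, adjusted p = 1.81e-09, edgeR quasi-likelihood, Benjamini-Hochberg), opposite to that of S100A6. AHNAK, a giant scaffold protein held by the S100A10 complex, went from 1523 ± 43.9 to 856 ± 97.6 CPM. EZR, the ezrin gene and partner of S100P, went from 340.5 ± 36.9 to 234 ± 5.84 CPM, and MYH10, for nonmuscle myosin IIB, had a log2 fold change of -1.06. MYH9, the myosin target of S100A4, was at 1281, 1520.0 and 1179 CPM in VC and at 1199, 1233 and 1455 CPM in VHL-KO. Its groups overlapped and it was not called (log2 fold change -0.03, adjusted p = 0.781, edgeR quasi-likelihood, Benjamini-Hochberg), although it was called lower with library size alone (-0.22), with GC and length trends removed (-0.23) and with the GC trend alone removed (-0.35). No alternative called MYH9 higher, but it was positive with upper quartile factors (0.08), with the length trend alone removed (0.24) and when VC replicate 2 (0.09) was left out, or replicate 1 (0.03) or 2 (0.003) of VHL-KO. TRPV5 and TRPV6, calcium channels that S100A10 carries in kidney and gut, were at 0 in all samples. Over the alternatives CACYBP ranged from -1.34 to -0.66 and AHNAK from -1.03 to -0.55. Of the 18 partners tested, 9 have transcripts of 5000 bases or more and 5 of 3000 to 5000 bases. At these lengths all genes tested had a median log2 fold change of -0.32 and -0.22. Partners also differ in GC content, from 37.4% for SUGT1 and 40.1% for CACYBP to 58.3% for MYH9 and 58.6% for PPP5C. All genes tested had a median of -0.47 at 35 to 40% GC and 0.28 at 55 to 60%. CACYBP was at -0.679 with the GC trend alone removed and -1.05 with the length trend alone removed. The part of length and GC content in the partners' values was not tested.

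**Figure D5:**
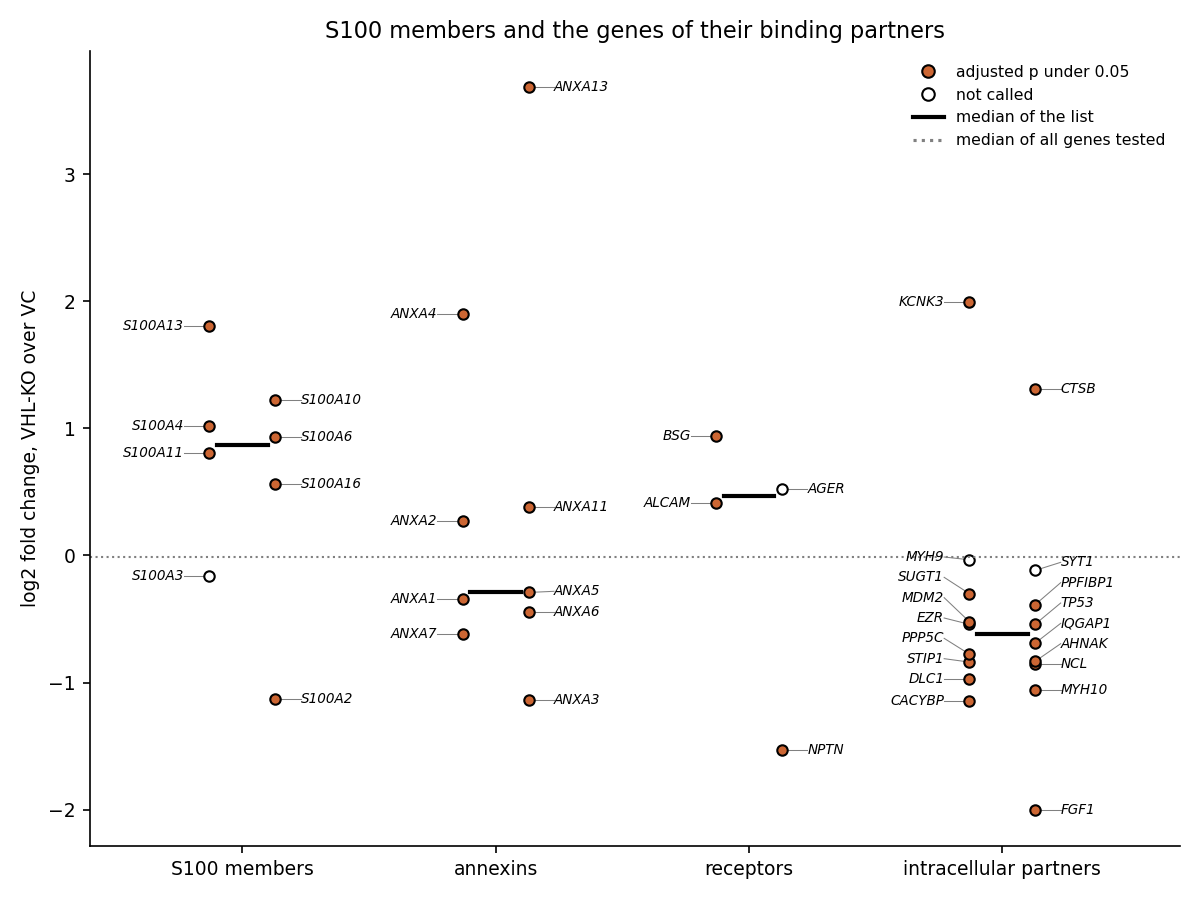
Log2 fold change, VHL-KO over VC, of the 8 S100 members, 9 annexins, 4 receptors and 18 intracellular partners tested, with filled points for genes called and black bars for list medians. The members' median is 0.87, the annexins spread from -1.14 (ANXA3) to 3.69 (ANXA13), and 14 of 18 intracellular partners are called lower.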

How the data were processed

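RNA-seq was measured in 3 VC and 3 VHL-KO samples of Caki-1 cells. The deposited values are raw counts of reads per gene: the authors trimmed reads with Trim Galore and Cutadapt, aligned them with STAR to GRCh38.p13, kept uniquely placed reads with SAMtools and counted them with HTSeq. Versions, annotation release and strand setting were not given in the sources used here. Counts were fitted in edgeR 4.0.16 (R 4.3.3): TMM factors, a filter that kept the 17401 of 60708 genes reaching 10 reads in some sample, a two-sided quasi-likelihood test without covariates, and Benjamini-Hochberg adjustment over all genes tested, with calls at an adjusted p under 0.05. Single ratios and shares had a two-sided exact permutation test over 20 arrangements. Total counts ranged from 22628246 to 34881739 per sample. Alternatives were DESeq2 1.42.0, RLE and upper quartile factors, library size alone, other filters, a replicate block, leaving out each sample, and offsets for GC content and transcript length (natural splines, 5 degrees of freedom). Offsets for GC or length alone were chosen after seeing the data. Positions, lengths and GC content came from GENCODE 44 (17355 tested genes matched), promoter windows from RefSeq. The fits were tested on simulated data.

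Named genes were all members and VHL, other S100 genes that passed the same filter, in each other list and among neighbours up to 5 called genes ranked by absolute change, and ANXA1, ANXA2, AHNAK, MYH9, CACYBP and EZR always. Exceptions, chosen after their values were seen, were EGLN3, AGER, TLR4, ITGAM, ILF2, THEM4, RP11-49N14.10, untested or undetected genes named with their counts, and genes named only because a setting turned their sign. The members and lists were chosen with earlier results of these data known.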

Additional observations from a re-analysis of the deposited data

How the results depend on the processing

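The 7 S100 calls of 8 tested were made with TMM, RLE and upper quartile factors, library size alone, DESeq2, both other filters, the replicate block and every fit without a sample. Without a filter beyond 1 count all 10 members were tested, and S100A14 and S100P were not called. With GC and length offsets 7 were called (5 higher, 2 lower), and with GC or length offsets alone 8 (6 higher, 2 lower). Over all genes 10394 were called, 9215 to 10564 over the alternatives.

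VHL lost its call with upper quartile factors (log2 fold change -0.219, adjusted p = 0.0905), GC and length offsets (-0.029), GC offsets alone (-0.175) and length offsets alone (-0.075), by edgeR quasi-likelihood, Benjamini-Hochberg. Without single samples it ranged from -0.391 to -0.282. Where a gene was called in the reported fit, in the alternative or in both, the sign turned with GC and length offsets for PPFIBP1 (0.044), SUGT1 (0.221), MDM2 (0.018), SYT1 (0.41) and KIAA0232 (0.246), with GC offsets alone for ANXA1 (0.083), ANXA5 (0.011), SUGT1 (0.225) and SYT1 (0.313), and with length offsets alone for SNAPIN (-0.262). SUGT1 was then called in the opposite direction under both offsets (adjusted p = 0.032 and 0.0306), and SYT1 (adjusted p = 0.00691 and 0.0363), KIAA0232 (adjusted p = 0.0272) and SNAPIN (adjusted p = 0.0337), uncalled as reported, were called with the opposite sign, by edgeR quasi-likelihood, Benjamini-Hochberg. The cause was not tested. Of 1051 alternative fits of 66 other single genes, 881 kept a call and its direction, 37 lost a call and 8 gained one with the same sign, 10 are the sign turns above, and 115 were not called in either fit. Among those 115 the sign changed in 18, in 6 genes (MYH9, SYT1, RP11-49N14.10, SNAPIN, MRFAP1L1 and KIAA0232).

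Without single samples the log2 ratio of S100A10 to ANXA2 differed by 0.911 to 0.987 and the S100A6 share by 0.889 to 3.06 points, or by 1.32 points with counts divided by length (exact permutation p = 0.5).

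Replicate numbers did not pair the samples: deviations of same-numbered samples correlated at 0.063, 0 and 0.028. With the replicate block 10284 genes were called (4847 higher, 5437 lower). Paired differences were 0.95 for the ratio and 2.16 points for the share (exact permutation p = 0.25 each, the smallest possible).

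Each group has 3 samples. S100A14, S100P and S100A5 were too shallow to compare, since 0 to 6 counts per library cannot show a moderate change.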
